A study of Homo sapiens with 30 samples.

Results

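The MAPK pathway feedback genes described here are 10 genes, DUSP4, DUSP5, DUSP6, SPRY2, SPRY4, SPRED1, SPRED2, ETV4, ETV5 and PHLDA1, read out as RNA output of the RAS-RAF pathway. They were taken by symbol from 26475 genes in each of 2 count tables, and all 10 were found and tested in both. All lineages descend from MDA-MB-231 cells, an established human line of mesenchymal breast carcinoma known to carry activating mutations in this pathway. No drug or gene change was applied, so every group shares that background, and the labels call each lineage wild type and distinct. The 30 libraries form 10 groups of 3. In the first table, lineages 22, 35 and 45 were sorted out of a mixed culture of 6 members kept for 15 days and passaged through a bottleneck every 3 days (co-culture), and each was also grown alone for about 24 hours (isolation). In the second table, lineages 03, 10 and 13 and a group named Pop were all grown in isolation. The medium was RPMI with 10% dialyzed serum and 2 mM glutamine throughout. What Pop stands for is not given in the sources used here. The series title places the work in clonal cooperation by exchange of soluble metabolites.

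In this pathway a RAS protein activates a RAF kinase, RAF activates the MEK kinases and MEK activates ERK. ERK then raises transcription of genes whose products hold the pathway back, so their RNA is widely used as a measure of pathway output. The dual-specificity phosphatases DUSP4, DUSP5 and DUSP6 remove phosphate from MAP kinases, DUSP5 and DUSP6 with a preference for ERK. Sprouty proteins (SPRY2, SPRY4) and SPRED proteins (SPRED1, SPRED2) restrain signaling at the level of RAS and RAF, and SPRED1 brings the RAS inactivator neurofibromin to the membrane. ETV4 and ETV5 are ETS transcription factors of the PEA3 group that carry part of the response to the nucleus. PHLDA1 is a pleckstrin homology-like protein induced by growth factor signaling.

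Several facts of the libraries touch what follows. Each library of lineages 22, 35 and 45 summed to between 29.8 and 38.8 M counts (M, mega), and each of the other table to between 28.1 and 35.4 M. Vimentin (VIM) was high in every group, with group means of 2333 to 5910 CPM (counts scaled to the library total). The luminal markers ESR1, PGR and FOXA1 were below 1 CPM in every group. Other luminal markers were present, with group means of 71.4 to 102 CPM for ERBB2 and 6.32 to 22.7 CPM for GATA3. EPCAM had 4.87 to 16.4 CPM, and CDH1 had at most 1.52 CPM. The 9 genes that marked isolated lineage 35 (at least 8-fold above both other isolated lineages) had a median of 0.320 CPM in the libraries labelled 35 from co-culture, against 24.2 CPM in lineage 35 in isolation, and 0 of 9 reached 0.5 of their isolated level. Of the corresponding genes of the other lineages, 14 of 30 for lineage 22 and 2 of 3 for lineage 45 reached it. Over all genes tested, the libraries labelled 35 from co-culture correlated at a mean r of 0.964 with isolated 45, 0.950 with isolated 22 and 0.924 with isolated 35. Every comparison of co-culture with isolation for 35 sets these libraries against lineage 35 in isolation, and whether it shows a change within 1 lineage or a difference between lineages cannot be told apart here. Co-culture also differs from isolation by culture time, sorting and RNA kit, and these cannot be told apart from it. Pop replicate 1 stood apart from the other Pop libraries, with a chi-square per gene of 54.5 and 74.7 against 6.46 between the other 2. Smaller gaps of this kind occurred in other groups. In co-culture they set apart 22 replicate 3 (47.0 and 34.6 against 16.1), 35 replicate 1 (33.8 and 31.6 against 10.5) and 45 replicate 1 (37.2 and 46.8 against 19.3). In isolation they included 13 replicate 3 (27.1 and 28.1 against 8.63) and 35 replicate 3 (23.3 and 26.3 against 10.2). No source says whether a group's 3 libraries are separate cultures, and p-values then cover only the spread among libraries, which may be technical. In bulk RNA, fewer cells with a transcript and less of it per cell cannot be told apart.

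Compared per length, as mean CPM per kilobase of one annotated transcript per gene, DUSP4 had the highest level of the 10 genes in each group of the first table except lineage 35 in isolation. There DUSP4 stood at 31.0 CPM per kb, behind PHLDA1 at 51.0 CPM per kb. DUSP4 reached 139 CPM per kb in lineage 22 from co-culture and 94.3 CPM per kb in lineage 22 in isolation. SPRY4 was second in 5 of the 6 groups of the first table, between 59.7 and 74.4 CPM per kb in those 5. In lineages 03, 10 and 13 PHLDA1 led, at 49.4, 51.4 and 43.2 CPM per kb, whereas in Pop DUSP4 led at 64.2 CPM per kb. SPRED1 had the lowest level in 9 of the 10 groups, between 6.71 and 11.9 CPM per kb, the exception being lineage 03, where SPRED2 was lowest at 9.58 CPM per kb. All further levels are CPM of a single gene compared between groups of one table.

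**Figure D1:**
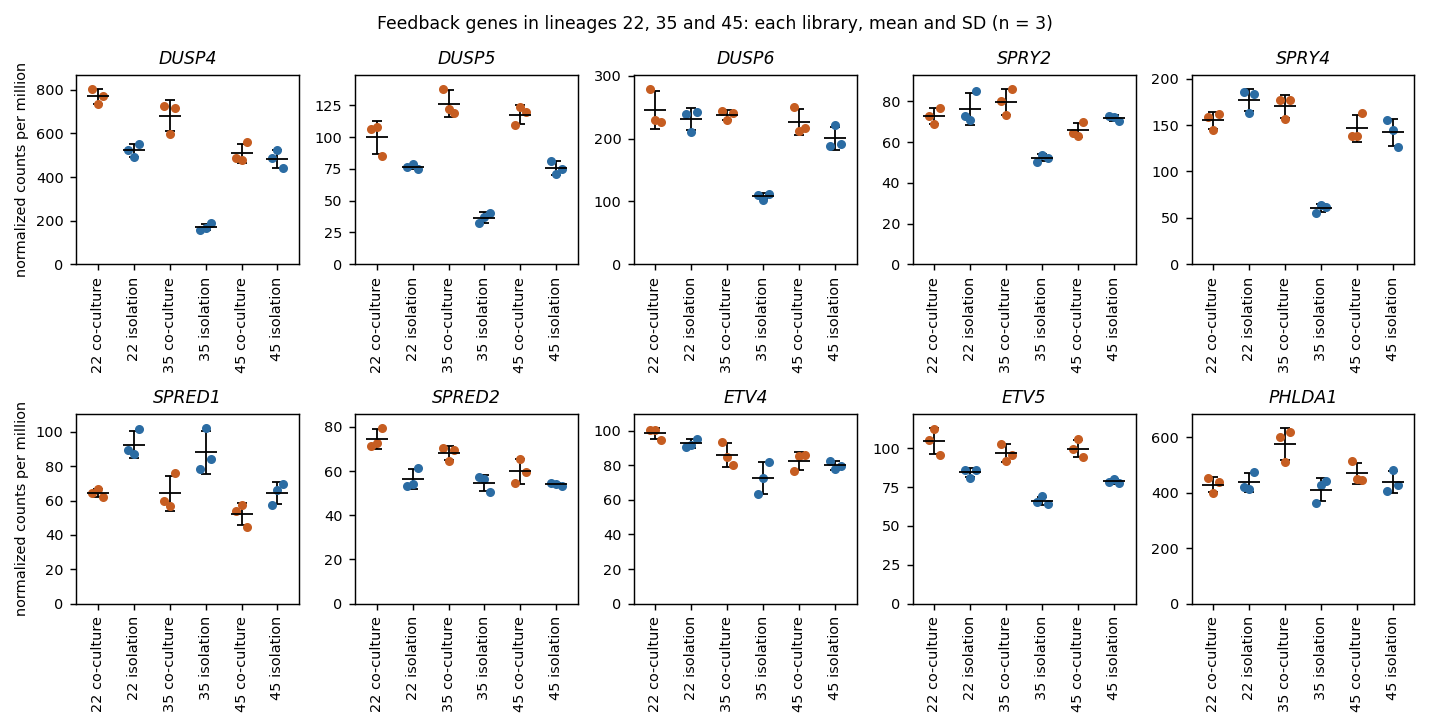
TMM-normalized CPM (vertical axes, starting at 0) of the 10 genes in lineages 22, 35 and 45, with co-culture libraries in orange left of isolation libraries in blue. Points are libraries, long ticks are means and bars are SD (n = 3). DUSP4, DUSP5, DUSP6, SPRY2, SPRY4 and ETV5 were lowest in lineage 35 in isolation, with no overlap with any other group.

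Lineage 35 in isolation held less RNA of the ERK phosphatases than lineages 22 and 45 in isolation. DUSP4 had 158, 168 and 188 CPM in lineage 35, against 488, 524 and 441 CPM in lineage 45, all in isolation. In lineage 22 in isolation it had 523, 491 and 553 CPM. The lineage 35 libraries lay far below both other lineages, and lineages 22 and 45 overlapped. The log2 fold change of 35 over 45 was -1.50 ± 0.10 (SE; edgeR adjusted p 4.99e-11), and that of 22 over 35 was 1.61 ± 0.10 (edgeR adjusted p 1.26e-11). DUSP5 (GRCh38 chromosome 10, 110497838 to 110511544, plus strand), a nuclear phosphatase of ERK, had 32.4, 37.4 and 40.5 CPM in lineage 35, against 81.6, 71.0 and 74.5 CPM in lineage 45. Its change was -1.04 ± 0.10 (35 over 45; edgeR adjusted p 2.44e-08). DUSP6 (chromosome 12, 89347232 to 89353271, minus strand), a cytoplasmic phosphatase of ERK, had 110, 102 and 111 CPM in lineage 35, against 188, 222 and 191 CPM in lineage 45. Its change was -0.89 ± 0.09 (edgeR adjusted p 9.63e-08). For both genes the groups did not overlap, and lineage 22 in isolation, with 75.2 to 78.5 CPM of DUSP5 and 210 to 243 CPM of DUSP6, overlapped lineage 45.

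Bases before the RefSeq starts of DUSP6 and SPRY2 are shown because both genes were low together in isolated lineage 35 and their RefSeq promoter windows (GRCh38.p14) hold CGGAA, the core letters that ETS factors such as ETV4 and ETV5 bind. Since both genes were picked for these 2 traits, their matches are no test of a link between the letters and RNA level. RefSeq windows were matched for 6 of the 10 genes, in 9 windows. The 250 bases before each start were searched on both strands for CGGAA. DUSP6 held 3 matches, PHLDA1 held 2 and the first SPRY2 window held 2, while the windows of SPRY4, SPRED1 and SPRED2 held none. Of 35116 promoters of the same length, 30.3% held at least 1 match. The longer ETS letters CCGGAAGT (3.42% of promoters), the CRE TGACGTCA (1.65%), the AP-1 letters TGANTCA (6.57%) and the CIC letters TGAATGAA (1.4%) and TGAATGGA (0.832%) were in none of the windows of these genes. Capitals mark CGGAA or its reverse complement TTCCG, and all runs are on the minus strand, 5′ to 3′. The DUSP6 matches begin 155, 144 and 61 bases before the RefSeq start, and the first pair of runs overlap. The DUSP6 runs lie inside the longer GENCODE span of the gene given above, in an annotated exon, so they are not upstream of every annotated transcript.
DUSP6 chr12:89352642-89352666: ttatccggagCGGAAattcctttcc
DUSP6 chr12:89352631-89352655: ggaaattcctTTCCGtttttgtgaa
DUSP6 chr12:89352548-89352572: caacagccccTTCCGcagcacgctc
SPRY2 chr13:80341127-80341376: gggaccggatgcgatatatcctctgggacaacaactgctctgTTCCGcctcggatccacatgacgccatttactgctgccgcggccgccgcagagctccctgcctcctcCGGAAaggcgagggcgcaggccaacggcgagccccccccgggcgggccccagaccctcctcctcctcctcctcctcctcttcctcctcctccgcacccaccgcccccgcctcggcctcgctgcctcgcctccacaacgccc
A match describes letters in these windows only, and binding was not measured here.

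Both Sprouty genes were also low in isolated lineage 35, and the SPRED genes were not. SPRY4 (chromosome 5, 142310427 to 142326455, minus strand) had 55.7, 63.9 and 61.7 CPM in lineage 35, against 156, 145 and 126 CPM in lineage 45. Its change of 35 over 45 was -1.23 ± 0.09 (edgeR adjusted p 9.17e-10), and that of 22 over 35 was 1.55 ± 0.10 (edgeR adjusted p 1.92e-11). SPRY2 (chromosome 13, 80335976 to 80340951, minus strand), whose promoter letters are shown above, had 50.4, 53.9 and 52.4 CPM in lineage 35, against 72.8, 72.5 and 70.2 CPM in lineage 45. Its change was smaller, at -0.46 ± 0.08 (edgeR adjusted p 7.52e-05). SPRED1 (chromosome 15, 38252326 to 38357249, plus strand) ran the other way, with 78.1, 102 and 84.1 CPM in lineage 35, against 57.5, 66.3 and 69.5 CPM in lineage 45 (log2 0.45 ± 0.12, edgeR adjusted p 0.00335). The 50 tested protein-coding genes nearest to SPRED1 had a median log2 fold change of 0.48 in the same contrast. Near DUSP4, DUSP5, DUSP6 and SPRY4 this median was -0.06, -0.45, -0.10 and -0.09. Over the whole chromosomes of these 4 genes the medians were -0.08, -0.15, -0.40 and -0.08, and it was 0.47 for that of SPRED1. Whether this bears on any of these genes was not tested. SPRED2 (chromosome 2, 65310851 to 65432637, minus strand) had 50.5 to 57.3 CPM in lineage 35, against 53.3 to 54.7 CPM in lineage 45, and it did not pass the test (log2 0.02 ± 0.08, edgeR adjusted p 0.887).

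Of the transcription factors, ETV5 (chromosome 3, 186046308 to 186110318, minus strand) had 65.5, 69.0 and 63.8 CPM in lineage 35, against 78.5, 80.5 and 77.5 CPM in lineage 45, all in isolation (log2 -0.25 ± 0.07, edgeR adjusted p 0.00731). ETV4 (chromosome 17, 43527844 to 43579620, minus strand) had 63.6, 72.5 and 82.1 CPM in lineage 35, against 82.7, 77.7 and 79.6 CPM in lineage 45. These overlapped, and the change of -0.14 ± 0.09 did not pass the test (edgeR adjusted p 0.190), though it did without lineage 35 isolation replicate 3 (log2 -0.23, edgeR adjusted p 0.0320). PHLDA1 (chromosome 12, 76025447 to 76033932, minus strand) overlapped as well, at 364 to 442 CPM in lineage 35 against 405 to 482 CPM in lineage 45 (log2 -0.09 ± 0.10, edgeR adjusted p 0.454).

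Counted over the 10 genes, 1 was higher and 6 were lower in lineage 35 than in lineage 45 in isolation, where 24.3% of all 14570 genes were called higher and 27.6% lower (edgeR, adjusted p under 0.05). The median log2 fold change was -0.36 over the 10 genes and -0.03 over all genes tested. Between isolated lineages 22 and 35, 7 of the 10 were higher and 0 lower in 22, against 32.2% and 31.4% of all genes. ETV4 was the one added to the 6 above, at 90.9 to 95.5 CPM in lineage 22 against 63.6 to 82.1 CPM in lineage 35. The 0 lower was also 0 at an unadjusted p under 0.05 in edgeR and 0 in DESeq2. Between lineages 22 and 45 in isolation, 2 genes were called. Higher in 22 were SPRY4, with 163 to 185 CPM against 126 to 156 CPM in 45 (log2 0.32 ± 0.09), and SPRED1, with 87.1 to 101 CPM against 57.5 to 69.5 CPM in 45 (log2 0.52 ± 0.12). These 2 stand against 18.6% of all genes called higher and 19.8% lower, with 0 members lower in edgeR, 0 at an unadjusted p under 0.05 and 0 in DESeq2. Without lineage 45 isolation replicate 3, SPRY4 lost its call (edgeR adjusted p 0.0740), and without replicate 2 DUSP6 gained one (log2 0.28, edgeR adjusted p 0.0382). ETV4, at log2 0.21 and an edgeR adjusted p of 0.0544, passed in DESeq2 (0.0289).

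Other genes of the pathway were counted in the contrast of isolated 35 over isolated 45. Of 20 further ERK output genes, 2 were higher and 11 lower, against 24.3% and 27.6% of all genes, the lower ones including the urokinase receptor gene PLAUR, with 59.7 CPM in lineage 35 and 146 CPM in lineage 45 (log2 -1.29 ± 0.08), and HMGA2, a chromatin protein gene (log2 -0.80 ± 0.10). The 3 other Sprouty and SPRED genes were all called lower, SPRY3 at the floor. SPRY1 had 8.09 CPM in lineage 35 and 26.5 CPM in lineage 45 (log2 -1.71 ± 0.14), and SPRED3 had 5.95 and 26.2 CPM (log2 -2.14 ± 0.11). SPRY3 had 0 CPM in lineage 35 and 0.0534 CPM in lineage 45, too little to count as expressed in either. Of 7 other DUSP phosphatases of MAP kinases, 3 were lower, including DUSP1 (log2 -2.17 ± 0.23), and 2 were higher, including DUSP10, a phosphatase known for JNK and p38, with 40.4 CPM in lineage 35 and 10.3 CPM in lineage 45 (log2 1.97 ± 0.11). The PEA3 factor ETV1 (log2 -1.01 ± 0.16) and PHLDA2 (log2 -1.01 ± 0.08) were lower and PHLDA3 was not called.

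Of 11 genes of the RAS, RAF, MEK and ERK core, 2 were higher and 2 lower in isolated lineage 35 than in isolated lineage 45. KSR1, a scaffold of the pathway, was among the lower ones (log2 -1.13 ± 0.18). MAP2K1, which encodes MEK1, was higher (log2 0.36 ± 0.07). Of 9 RAS activators and adaptors, 1 was higher and 1 lower (the exchange factor gene RASGRP3, log2 -2.96 ± 0.22). Of 7 RAS GTPase-activating proteins, which switch RAS off, 3 were higher and 1 lower, with DAB2IP at 171 CPM in lineage 35 and 65.9 CPM in lineage 45 (log2 1.38 ± 0.10). Of 7 ETS partners and repressors, 3 were higher and 1 lower, and of 6 kinases that ERK activates, 4 were higher and 0 lower, among them RPS6KA1 (log2 0.87 ± 0.09). The 4 include RPS6KA6, which was at the floor in both groups, with 0.0400 CPM in lineage 35 and 0 CPM in lineage 45. It had 6.48 CPM in lineage 22 in isolation. At an unadjusted p under 0.05 edgeR also gave 0 lower in that last list.

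Genes of handling and of other cell types differed in the same contrast. Of 20 immediate early genes, 5 of which are also among the ERK output genes, 2 were higher and 12 lower in isolated lineage 35 than in isolated lineage 45, and their summed level was 1013 to 1074 CPM in 35 against 1116 to 1147 CPM in 45. Of 6 leukocyte markers, 4 were tested and all 4 were lower in 35, with a summed level of 11.8 to 28.2 CPM against 143 to 182 CPM in 45, nearly all of it LAPTM5; CD3E had 0 counts in both groups. Of 6 endothelial and erythroid markers, 4 were tested and 3 were lower, with a summed level of 6.30 to 7.37 CPM against 117 to 123 CPM, nearly all of it ESAM; HBB had 0 counts in both. Of 5 fibroblast markers, 1 was higher and 2 were lower of 4 tested, with 10.6 to 15.2 CPM against 11 to 14.2 CPM. The part of these in the feedback gene differences was not tested.

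Libraries labelled 35 from co-culture held more feedback gene RNA than lineage 35 in isolation for 9 of the 10 genes and less for 1, where 32.7% of all genes were called higher and 32.9% lower. As given above, 0 of the 9 marker genes of isolated lineage 35 reached 0.5 of their level in these libraries. DUSP4 (chromosome 8, 29333064 to 29350668, minus strand) had 726, 599 and 717 CPM in co-culture, against 158, 168 and 188 CPM in isolation, 3.97-fold higher (log2 1.99 ± 0.10, edgeR adjusted p 6.30e-13). DUSP5 had 138, 122 and 119 CPM in co-culture, against 32.4, 37.4 and 40.5 CPM in isolation (log2 1.78 ± 0.10, edgeR adjusted p 6.65e-12). DUSP6 had 244, 229 and 241 CPM in co-culture, against 110, 102 and 111 CPM in isolation (log2 1.14 ± 0.09, edgeR adjusted p 2.01e-09). For all 3 phosphatases every co-culture library lay above every isolation library by more than the spread within groups. SPRY4 had 177, 156 and 177 CPM in co-culture, against 55.7, 63.9 and 61.7 CPM in isolation (log2 1.49 ± 0.10, edgeR adjusted p 3.72e-11). SPRY2 had 80.2, 73.2 and 86.0 CPM in co-culture, against 50.4, 53.9 and 52.4 CPM in isolation (log2 0.61 ± 0.08, edgeR adjusted p 1.78e-06). The Sprouty groups did not overlap either.

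The remaining genes differed less between the libraries labelled 35 from co-culture and lineage 35 in isolation. ETV5 had 103, 91.7 and 95.6 CPM in co-culture, against 65.5, 69.0 and 63.8 CPM in isolation (log2 0.55 ± 0.08, edgeR adjusted p 2.31e-06). PHLDA1 had 601, 510 and 619 CPM in co-culture, against 364, 428 and 442 CPM in isolation (log2 0.49 ± 0.10, edgeR adjusted p 0.000208). SPRED2 had 70.4, 64.6 and 69.5 CPM in co-culture, against 57.3, 56.2 and 50.5 CPM in isolation (log2 0.32 ± 0.08, edgeR adjusted p 0.00218). These 3 did not overlap between conditions. ETV4 overlapped, with 93.6, 84.8 and 80.0 CPM in co-culture against 63.6, 72.5 and 82.1 CPM in isolation (log2 0.24 ± 0.09, edgeR adjusted p 0.0171). Its call was lost without lineage 35 isolation replicate 1 (log2 0.16, edgeR adjusted p 0.125) and without lineage 35 co-culture replicate 1 (log2 0.18, edgeR adjusted p 0.0966). SPRED1 was the gene that was lower, with 59.8, 57.1 and 76.1 CPM in co-culture against 78.1, 102 and 84.1 CPM in isolation (log2 -0.46 ± 0.12, edgeR adjusted p 0.00244). Its 50 nearest tested protein-coding genes had a median of -0.63 in this contrast, and 29 of them changed at least as far in the same direction. Among the nearest 50 genes of DUSP4, DUSP5, DUSP6 and SPRY4 the medians were 0.24, 0.41, 0.11 and 0.04, and 4, 5, 8 and 5 of them were higher by at least as much as the gene itself. Over all tested protein-coding genes of their chromosomes the medians were 0.11, 0.16, 0.43 and 0.12. For the chromosome of SPRED1 it was -0.49. The neighbors were chosen after the data were seen, and their part was not tested.

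**Figure D2:**
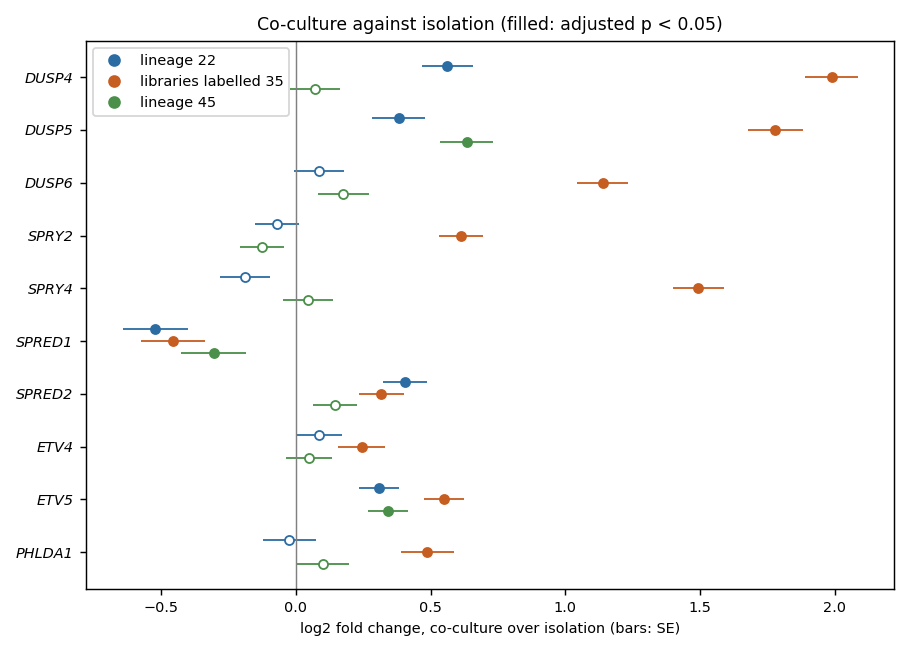
Log2 fold change of co-culture over isolation (horizontal axis) of each gene in lineages 22 and 45 and for the libraries labelled 35 over lineage 35 in isolation. Points are estimates of the fit, bars are SE, and filled points passed an adjusted p of 0.05; the points for 35 lie far to the right for DUSP4, DUSP5, DUSP6 and SPRY4, with values of 1.14 to 1.99.

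In lineage 22, 4 of the 10 genes were higher after co-culture and 1 was lower, against 27% and 30% of all genes. DUSP4 had 805, 736 and 774 CPM in co-culture, against 523, 491 and 553 CPM in isolation (log2 0.56 ± 0.09, edgeR adjusted p 4.57e-05). DUSP5 had 106, 108 and 85.1 CPM in co-culture, against 76.1, 78.5 and 75.2 CPM in isolation (log2 0.38 ± 0.10, edgeR adjusted p 0.00256). Neither pair of groups overlapped. SPRED2 had 71.3, 72.9 and 79.5 CPM in co-culture, against 53.3, 54.1 and 61.4 CPM in isolation (log2 0.41 ± 0.08), and ETV5 had 105, 113 and 95.7 CPM, against 86.0, 81.2 and 86.2 CPM (log2 0.31 ± 0.07). SPRED1 was lower, with 64.5, 66.9 and 62.0 CPM in co-culture against 89.3, 87.1 and 101 CPM in isolation (log2 -0.52 ± 0.12, edgeR adjusted p 0.00106). DUSP6 overlapped, at 226 to 280 CPM in co-culture against 210 to 243 CPM in isolation (log2 0.09 ± 0.09), as did SPRY2 (log2 -0.07 ± 0.08), ETV4 at 94.9 to 101 CPM against 90.9 to 95.5 CPM (log2 0.09 ± 0.09) and PHLDA1 (log2 -0.02 ± 0.10). SPRY4 had 145 to 162 CPM in co-culture and 163 to 185 CPM in isolation and did not pass the test (log2 -0.19 ± 0.09, edgeR adjusted p 0.0878), but it did under a stricter filter on low counts (log2 -0.24, edgeR adjusted p 0.0376).

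In lineage 45, 2 of the 10 genes were higher after co-culture and 1 was lower, against 18.6% and 23.2% of all genes. DUSP5 had 109, 124 and 120 CPM in co-culture, against 81.6, 71.0 and 74.5 CPM in isolation (log2 0.63 ± 0.10, edgeR adjusted p 4.38e-05). ETV5 had 99.3, 106 and 94.5 CPM in co-culture, against 78.5, 80.5 and 77.5 CPM in isolation (log2 0.34 ± 0.07, edgeR adjusted p 0.00117). Both genes had no overlap between conditions. SPRED1 was lower at the edge of the threshold, with 54.1, 57.6 and 44.9 CPM in co-culture against 57.5, 66.3 and 69.5 CPM in isolation (log2 -0.30 ± 0.12, edgeR adjusted p 0.0480). It lost the call without lineage 45 isolation replicate 2 (log2 -0.28, edgeR adjusted p 0.123) or 3 (log2 -0.25, 0.162), without co-culture replicate 1 (log2 -0.33, 0.0681) or 3 (log2 -0.21, 0.205), with the replicate number as a block (0.0518), with RLE normalization (0.0719) and in DESeq2 (0.0680). DUSP4 stood at 478 to 560 CPM in co-culture and 441 to 524 CPM in isolation (log2 0.07 ± 0.09), and SPRY4 at 138 to 163 CPM and 126 to 156 CPM (log2 0.05 ± 0.09). These and DUSP6 (log2 0.18 ± 0.09), SPRY2 (log2 -0.13 ± 0.08), SPRED2, ETV4 and PHLDA1 did not pass the test.

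Across the 3 comparisons of co-culture with isolation, 2 of the 10 genes, DUSP5 and ETV5, were called higher in each, against 7.77% of all genes, and 1, SPRED1, was called lower in each, against 10.6%. SPRED1's call in lineage 45 (edgeR adjusted p 0.0480) was lost under RLE normalization, no filter, the replicate block, the 2 groups alone and DESeq2. The DUSP5 differences were 0.38, 1.78 and 0.63 on the log2 scale for 22, 35 and 45. The median log2 fold change of the 10 genes was 0.09 for 22, 0.58 for 35 and 0.09 for 45, against medians of -0.04, 0.01 and -0.03 over all genes tested.

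Whether the difference between co-culture and isolation was unequal among 22, 35 and 45 was tested with an interaction F test. It called 6 of the 10 genes, which is near the share over all genes (55.2%). The 6 were DUSP4 (edgeR adjusted p 7.46e-10), SPRY4 (2.55e-09), DUSP5 (1.01e-07), DUSP6 (1.4e-06), SPRY2 (2.24e-05) and PHLDA1 (0.00931). For 35 this test compares the libraries labelled 35 from co-culture, which correlated at a mean r of 0.964 with isolated 45 and 0.924 with isolated 35, with lineage 35 in isolation, so a change within the lineage cannot be told apart from a difference between lineages. Set against the difference in lineage 45, that for 35 was larger by log2 1.92 ± 0.13 for DUSP4, 1.45 ± 0.13 for SPRY4, 1.15 ± 0.14 for DUSP5, 0.96 ± 0.13 for DUSP6 and 0.74 ± 0.12 for SPRY2. In that pair 6 of the 10 were higher and 0 lower, against 22.8% and 19.5% of all genes, with 0 lower also at an unadjusted p under 0.05 in edgeR and in DESeq2. PHLDA1 was the sixth (log2 0.39 ± 0.14, edgeR adjusted p 0.0291), and it lost the call without lineage 35 isolation replicate 1 (log2 0.31, edgeR adjusted p 0.0917), 35 co-culture replicate 1 (0.36, 0.0619) or 3 (0.33, 0.0827), 45 isolation replicate 2 (0.31, 0.0938), or 45 co-culture replicate 2 (0.36, 0.0630) or 3 (0.35, 0.0640). The difference in lineage 22 was below that for 35 for 6 genes, namely DUSP4, DUSP5, DUSP6, SPRY2, SPRY4 and PHLDA1, and above it for 0 (0 also unadjusted in edgeR and in DESeq2), against 24.2% of all genes higher and 25.4% lower. Between lineages 22 and 45, 1 of the 10, DUSP4, was higher (log2 0.49 ± 0.13, edgeR adjusted p 0.0138) and 0 were lower (0 also unadjusted in edgeR and in DESeq2), against 9.25% of all genes higher and 8.08% lower. In a fit with the lineage 35 libraries left out, added after the data were seen, the interaction test called 1 gene, DUSP4. SPRED1, SPRED2, ETV4 and ETV5 had interaction p-values of 0.502, 0.151, 0.319 and 0.109 after edgeR's adjustment.

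The same lists were counted for co-culture over isolation, the libraries labelled 35 again standing for 35 from co-culture. Of the 20 further ERK output genes, 5, 8 and 4 were higher for 22, 35 and 45, against 27%, 32.7% and 18.6% of all genes, and 9, 5 and 9 were lower, against 30%, 32.9% and 23.2%. EPHA4, an ephrin receptor gene, was lower in all of them (log2 -1.87, -0.88 and -1.26). PLAUR fell by 0.70 in lineage 22 and by 0.56 in lineage 45, and was higher in the libraries labelled 35 (log2 0.68 ± 0.08). Of the 7 other DUSP genes, 1, 5 and 5 were higher and 1, 1 and 0 lower. DUSP1 was higher in each (log2 1.75 ± 0.21, 3.82 ± 0.24 and 1.99 ± 0.21), and DUSP10 was lower in the libraries labelled 35, with 8.13 CPM in co-culture and 40.4 CPM in isolation. SPRY1 was higher in each (log2 0.90 ± 0.13, 2.79 ± 0.14 and 0.39 ± 0.13), while SPRED3 was higher in the libraries labelled 35 (log2 1.35 ± 0.11) and fell in 45 (log2 -0.59 ± 0.10). Among the 7 RAS GTPase-activating proteins edgeR called 0 higher in each comparison (1, 0 and 0 at an unadjusted p under 0.05) and 5, 6 and 6 lower.

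The pathway core held genes called in both directions. Of its 11 genes 3, 4 and 2 were higher and 1, 2 and 1 lower for 22, 35 and 45. ARAF, which encodes one of the RAF kinases, was lower in each (log2 -0.72 ± 0.08, -0.78 ± 0.08 and -0.58 ± 0.08). Of 9 activators and adaptors 2, 2 and 1 were higher and 6, 1 and 3 lower, with the adaptor gene GRB2 higher in each (log2 0.54 ± 0.08, 0.28 ± 0.08 and 0.24 ± 0.08). Of 7 ETS partners and repressors, ERF was higher in each (log2 0.46 ± 0.07, 0.39 ± 0.07 and 0.19 ± 0.07) and ETV6 was lower in each (log2 -0.59 ± 0.11, -1.0 ± 0.11 and -1.22 ± 0.11).

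Immediate early genes and markers of other cells moved with these contrasts. Of 20 immediate early genes, 7, 14 and 11 were higher and 4, 2 and 2 lower after co-culture for 22, 35 and 45. Their summed level was 1398 to 1425 CPM in co-culture against 1218 to 1360 CPM in isolation for lineage 22, 1429 to 1501 against 1013 to 1074 CPM for lineage 35, and 1305 to 1514 against 1116 to 1147 CPM for lineage 45. The sums are carried mostly by genes of high level and hide larger changes of others. FOS had group means of 44.0, 30.4 and 33.9 CPM in co-culture for 22, 35 and 45, against 6.40, 1.81 and 5.31 CPM in isolation. DUSP1, also on this list, had 94.7, 92.2 and 117 CPM in co-culture, against 28.2, 6.54 and 29.4 CPM in isolation. The leukocyte markers were higher in 4 of 4 tested for 35, at 69.2 to 75.3 CPM in co-culture against 11.8 to 28.2 CPM in isolation, whereas 2 and 1 of 4 were lower in lineages 22 and 45. PTPRC, which defines leukocytes, had 0.938 CPM in co-culture and 0.0504 CPM in isolation for 35, and CD3E had 0 counts in both. Of the endothelial and erythroid markers 2 of 4 tested were higher for 35, at 124 to 134 CPM in co-culture against 6.30 to 7.37 CPM in isolation, with HBB at 0. The fibroblast markers were higher in 0 and lower in 2 of 4 there, at 9.48 to 10.5 against 10.6 to 15.2 CPM, with DCN at 0. Their part in the feedback gene changes was not tested.

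The libraries from co-culture were also compared with each other. Lineage 22 against the libraries labelled 35 had 0 members higher in edgeR (1 at an unadjusted p under 0.05 and 1 in DESeq2) and 2 lower, against 15.6% and 15.5% of all genes. The lower ones were DUSP5, with 85.1 to 108 CPM in 22 and 119 to 138 CPM in 35 (log2 -0.34 ± 0.10), and PHLDA1, with 399 to 454 CPM in 22 and 510 to 619 CPM in 35 (log2 -0.42 ± 0.10). DUSP5 lost its call without lineage 22 co-culture replicate 3 (log2 -0.24, edgeR adjusted p 0.0709) or 35 co-culture replicate 1 (log2 -0.27, 0.0665). Without that 35 library ETV4 was called higher in 22 (log2 0.26, edgeR adjusted p 0.0467), as it was in DESeq2 (log2 0.22, adjusted p 0.0412). Lineage 22 against 45 had 3 members higher and 0 lower in edgeR (1 lower unadjusted, 0 in DESeq2), against 13.2% and 12% of all genes. The higher ones were DUSP4 (log2 0.60 ± 0.09, edgeR adjusted p 8.62e-05), SPRED2 (log2 0.32 ± 0.08, 0.00749) and ETV4 (log2 0.25 ± 0.09, 0.0342). ETV4 lost the call without lineage 22 co-culture replicate 1 (0.0773) or 2 (0.0884) and without lineage 45 co-culture replicate 1 (0.138) or 2 (0.0510). Without this last library SPRED1 was called higher in 22 (log2 0.38, 0.0491). The libraries labelled 35 against 45 had 2 members higher and 0 lower in edgeR (0 unadjusted and 0 in DESeq2), against 6.42% and 6.28% of all genes. DUSP4 had 599 to 726 CPM in 35 and 478 to 560 CPM in 45 (log2 0.42 ± 0.09, edgeR adjusted p 0.00401). SPRY2 had 73.2 to 86.0 CPM in 35 and 63.1 to 69.7 CPM in 45 (log2 0.28 ± 0.08, 0.0275). The SPRY2 call was lost without lineage 35 co-culture replicate 1 (0.0727) or 3 (0.167) or 45 co-culture replicate 1 (0.0707) or 2 (0.0899). PHLDA1 became a call without 35 co-culture replicate 2 (log2 0.38, 0.0230) or 45 co-culture replicate 1 (log2 0.36, 0.0296).

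**Figure D3:**
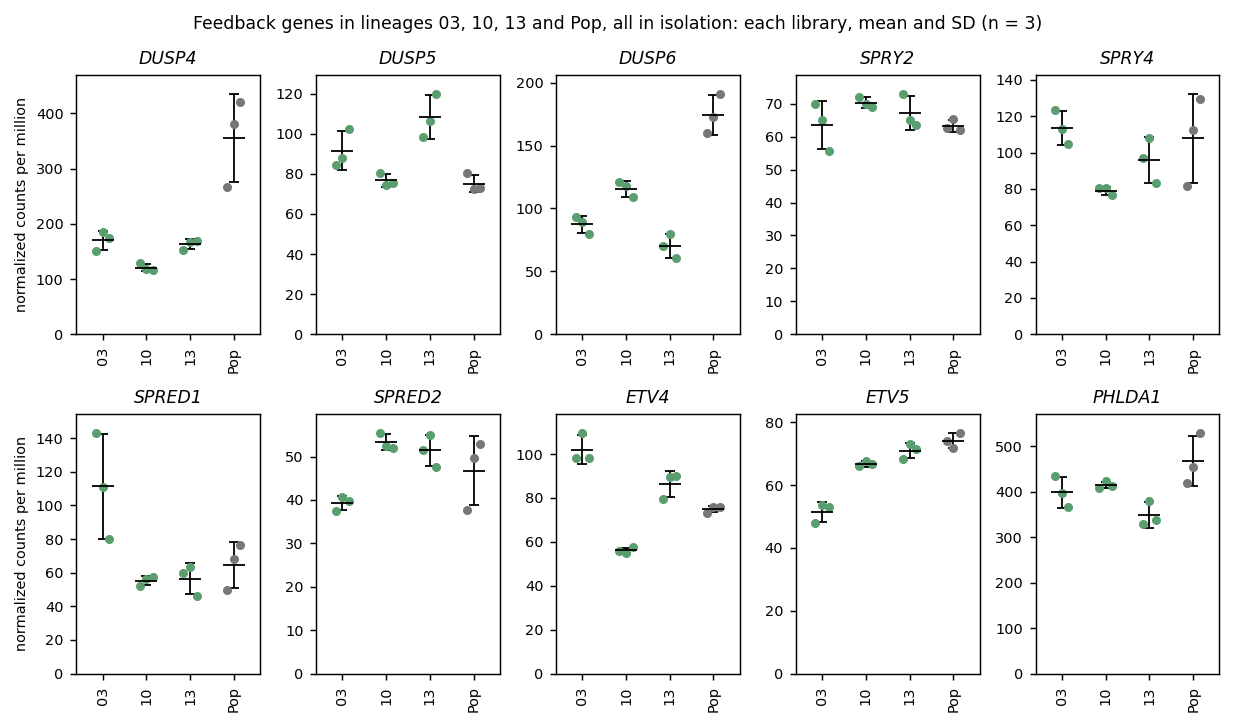
TMM-normalized CPM (vertical axes, starting at 0) of the 10 genes in lineages 03, 10 and 13 (green) and Pop (gray), all in isolation. Points are libraries, long ticks are means and bars are SD (n = 3); DUSP4 and DUSP6 were highest in Pop, where DUSP4 had 266 to 420 CPM, with no overlap with any lineage.

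In the second table, lineages 03, 10 and 13 held less DUSP4 and DUSP6 RNA than Pop. DUSP4 had 150, 186 and 173 CPM in lineage 03, 128, 117 and 117 CPM in lineage 10, and 153, 167 and 169 CPM in lineage 13, against 266, 380 and 420 CPM in Pop. All lineage libraries lay below all Pop libraries, and Pop replicate 1 was the lowest of Pop. The log2 fold changes over Pop were -1.07 ± 0.14 in 03 (edgeR adjusted p 2.90e-05), -1.56 ± 0.14 in 10 (1.62e-06) and -1.13 ± 0.14 in 13 (2.02e-05). DUSP6 had 93.2, 88.9 and 79.7 CPM in lineage 03, 121, 118 and 109 CPM in lineage 10, and 70.4, 79.6 and 60.6 CPM in lineage 13, against 160, 172 and 191 CPM in Pop. Its changes were -1.0 ± 0.10 in 03 (edgeR adjusted p 4.20e-06), -0.59 ± 0.10 in 10 (0.000419) and -1.31 ± 0.10 in 13 (3.90e-07). DUSP5 did not go with them. It had 84.4, 87.7 and 103 CPM in lineage 03, 80.4, 74.6 and 75.3 CPM in lineage 10, and 98.3, 107 and 120 CPM in lineage 13, against 80.2, 72.4 and 72.8 CPM in Pop. DUSP5 was higher than Pop in 13 (log2 0.53 ± 0.09, edgeR adjusted p 0.000419) and in 03 (log2 0.29 ± 0.09, 0.0204). The call in 03 was lost without lineage 03 replicate 3 (log2 0.20, 0.100) or Pop replicate 2 (log2 0.26, 0.0682).

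The Sprouty and SPRED genes differed less from Pop. SPRY2 was flat, with group means of 63.6 CPM in lineage 03, 70.3 CPM in 10 and 67.2 CPM in 13, against 63.3 CPM in Pop, and did not pass in any of the 3 comparisons. Its range of 0.15 on the log2 scale over the 4 groups stood at percentile 3.05 of the ranges of all genes tested. SPRY4 had 123, 113 and 105 CPM in lineage 03, 80.3, 80.3 and 76.5 CPM in lineage 10, and 96.8, 108 and 83.0 CPM in lineage 13, against 81.4, 113 and 130 CPM in Pop. It was lower than Pop in lineage 10 (log2 -0.45 ± 0.14, edgeR adjusted p 0.0208), a call lost without lineage 10 replicate 1 (0.0508), 2 (0.0517) or 3 (0.0681) and without Pop replicate 2 (0.0608) or 3 (log2 -0.29, 0.110). Without Pop replicate 1 it was also called lower in 13 (log2 -0.35, 0.0108). SPRED1 had 143, 111 and 80.3 CPM in lineage 03, against 49.5, 67.9 and 76.3 CPM in Pop (log2 0.79 ± 0.19, edgeR adjusted p 0.00431). The lineage 03 libraries were widely spread but all above Pop, while lineages 10 and 13, at 52.2 to 57.4 and 46.2 to 63.5 CPM, overlapped Pop. SPRED2 had 37.4 to 40.6 CPM in lineage 03, 52.0 to 55.4 CPM in 10 and 47.7 to 55.0 CPM in 13, against 37.7 to 52.9 CPM in Pop, and passed in none. Without Pop replicate 1, SPRED2 was called lower in 03 (log2 -0.39, edgeR adjusted p 0.000727).

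**Figure D4:**
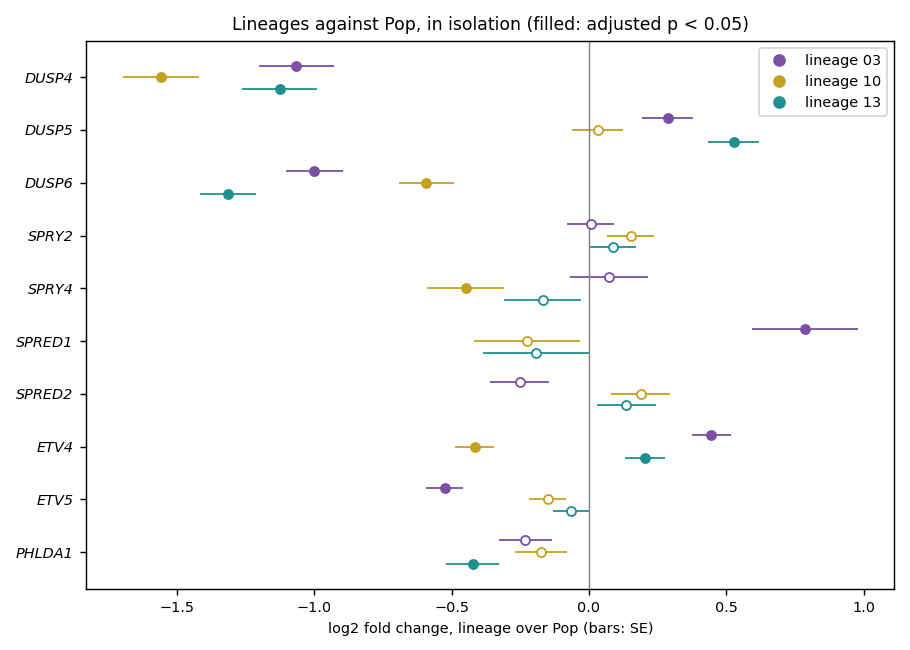
Log2 fold change over Pop (horizontal axis) of each gene in lineages 03, 10 and 13, all in isolation. Points are estimates of the fit, bars are SE, and filled points passed an adjusted p of 0.05; DUSP4 and DUSP6 lie left of 0 in each lineage, from -0.59 to -1.56.

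ETV4 ordered the lineages without overlap of neighbors. It had 98.2, 110 and 98.2 CPM in lineage 03, 55.8, 55.1 and 57.6 CPM in lineage 10, and 79.4, 89.4 and 89.99 CPM in lineage 13, against 73.2, 75.8 and 75.8 CPM in Pop. It was higher than Pop in 03 (log2 0.44 ± 0.07, edgeR adjusted p 0.000194) and 13 (log2 0.20 ± 0.07, 0.0328) and lower in 10 (log2 -0.42 ± 0.07, 0.000434). The call in 13 was lost without lineage 13 replicate 2 (0.112) or 3 (0.09997) and without Pop replicate 1 (0.0737), 2 (0.0658) or 3 (0.0615). ETV5 had 47.8, 53.6 and 53.1 CPM in lineage 03, against 74.0, 71.9 and 76.6 CPM in Pop (log2 -0.53 ± 0.07, edgeR adjusted p 2.89e-05), and was not called in 10 or 13. The 50 genes nearest to ETV5 had a median of -0.61 in the same contrast, and 33 of them fell at least as far. PHLDA1 was lower than Pop in lineage 13, with 329, 380 and 337 CPM against 420, 455 and 529 CPM (log2 -0.42 ± 0.10, edgeR adjusted p 0.00257). Its 50 nearest genes had a median of -0.52 there, and 35 fell at least as far. The 50 nearest to DUSP6 had a median of -0.43 in that contrast, and 6 fell as far as DUSP6 did. The part of the neighborhood was not tested. PHLDA1 was also called lower in 03 without lineage 03 replicate 1 (log2 -0.29, edgeR adjusted p 0.0350) or Pop replicate 1 (log2 -0.30, 0.0101), and in 10 without Pop replicate 1 (log2 -0.25, 0.0341).

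Counted against Pop, lineage 03 had 3 members higher and 3 lower, against 23.2% and 25.5% of the 14638 genes tested. Lineage 10 had 0 higher in edgeR (0 unadjusted and 0 in DESeq2) and 4 lower, against 18.8% and 23.5%, and lineage 13 had 2 higher and 3 lower, against 21% and 24.2%. Without Pop replicate 1 the lower counts were 5, 5 and 4 in lineages 03, 10 and 13. The 3 comparisons share the Pop libraries. Median log2 fold changes of the 10 genes were -0.11, -0.20 and -0.12, against -0.03, -0.02 and -0.01 over all genes.

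Among the lineages themselves, lineage 03 against 10 had 5 members higher and 3 lower, against 26.4% and 25% of all genes. SPRED1 (log2 1.01 ± 0.19) and ETV4 (log2 0.86 ± 0.07) differed most, followed by SPRY4 (log2 0.52 ± 0.14), DUSP4 (log2 0.49 ± 0.14) and DUSP5 (log2 0.25 ± 0.09), and SPRED2, DUSP6 and ETV5 were lower in 03 (log2 -0.44, -0.41 and -0.37). DUSP5 lost its call without lineage 03 replicate 3 (log2 0.17, edgeR adjusted p 0.161) or lineage 10 replicate 2 (0.100) or 3 (0.0945). Lineage 03 against 13 had 3 higher and 3 lower, against 26.1% and 27.1%. SPRED1 (log2 0.98 ± 0.19), DUSP6 (log2 0.31 ± 0.10) and ETV4 (log2 0.24 ± 0.07) were higher and ETV5 (log2 -0.46 ± 0.07), SPRED2 (log2 -0.39 ± 0.11) and DUSP5 (log2 -0.24 ± 0.09) lower in 03. In that pair DUSP6 lost its call without lineage 03 replicate 1 (edgeR adjusted p 0.0729) or 2 (0.0576) or lineage 13 replicate 3 (0.0898), and ETV4 lost it without 03 replicate 2 (0.0640) or 13 replicate 1 (0.0615). DUSP5 lost it without 03 replicate 1 (0.143) or 2 (0.127) or 13 replicate 2 (0.0688) or 3 (0.176). Lineage 10 against 13 had 1 higher and 3 lower, against 16.6% and 18%. DUSP6 was higher in 10 (log2 0.72 ± 0.10, edgeR adjusted p 0.000117), and ETV4 (log2 -0.62 ± 0.07), DUSP5 (log2 -0.50 ± 0.09) and DUSP4 (log2 -0.43 ± 0.14) were lower. DUSP4 lost the call without lineage 10 replicate 2 (edgeR adjusted p 0.0781) or 3 (0.0825) or lineage 13 replicate 2 (0.0665) or 3 (0.0668), and PHLDA1 gained one without lineage 13 replicate 2 (log2 0.32, 0.0391).

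Other pathway genes in the second table were counted against Pop for lineages 03, 10 and 13. Of the 20 further ERK output genes, 4, 1 and 4 were higher, against 23.2%, 18.8% and 21% of all genes, and 4, 10 and 7 were lower, against 25.5%, 23.5% and 24.2%. EPHA2 (log2 -0.78 ± 0.07, -0.75 ± 0.07 and -0.40 ± 0.07), EPHA4 (log2 -3.58 ± 0.15, -1.70 ± 0.13 and -2.24 ± 0.14) and HMGA2 (log2 -1.08 ± 0.09, -0.97 ± 0.09 and -0.82 ± 0.09) were lower in each. SPRY1 was lower in 03 and 10 (log2 -3.23 ± 0.17 and -1.42 ± 0.15) and was not called in 13 (log2 -0.13 ± 0.14). DUSP10 was higher in 03 and 10 (log2 1.63 ± 0.08 and 0.74 ± 0.08). The 7 RAS GTPase-activating proteins were higher in 5, 5 and 4 and lower in 0 in edgeR (0, 0 and 1 unadjusted), with DAB2IP higher in each (log2 0.58 ± 0.08, 0.56 ± 0.08 and 0.71 ± 0.08). The core list had 5, 1 and 1 of 11 higher and 2, 1 and 1 lower. Immediate early genes were higher in 4, 2 and 2 and lower in 3, 9 and 6 of 20. Leukocyte markers summed to 75.7 to 96.4, 10.5 to 20.8 and 12.3 to 22.3 CPM in 03, 10 and 13, against 91.9 to 121 CPM in Pop, and endothelial and erythroid markers to 13.2 to 17.3, 30.1 to 32.7 and 6.14 to 8.01 CPM, against 80.7 to 94.3 CPM. Of the leukocyte markers tested 1, 0 and 0 of 3 were higher and 0, 2 and 3 lower, and of the endothelial and erythroid markers 2, 2 and 2 of 2 were lower, with HBB at 0 counts in every group of this table. Fibroblast markers were higher in 2, 0 and 0 and lower in 2, 2 and 4 of 4. Their part in the feedback gene differences was not tested.

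**Figure D5:**
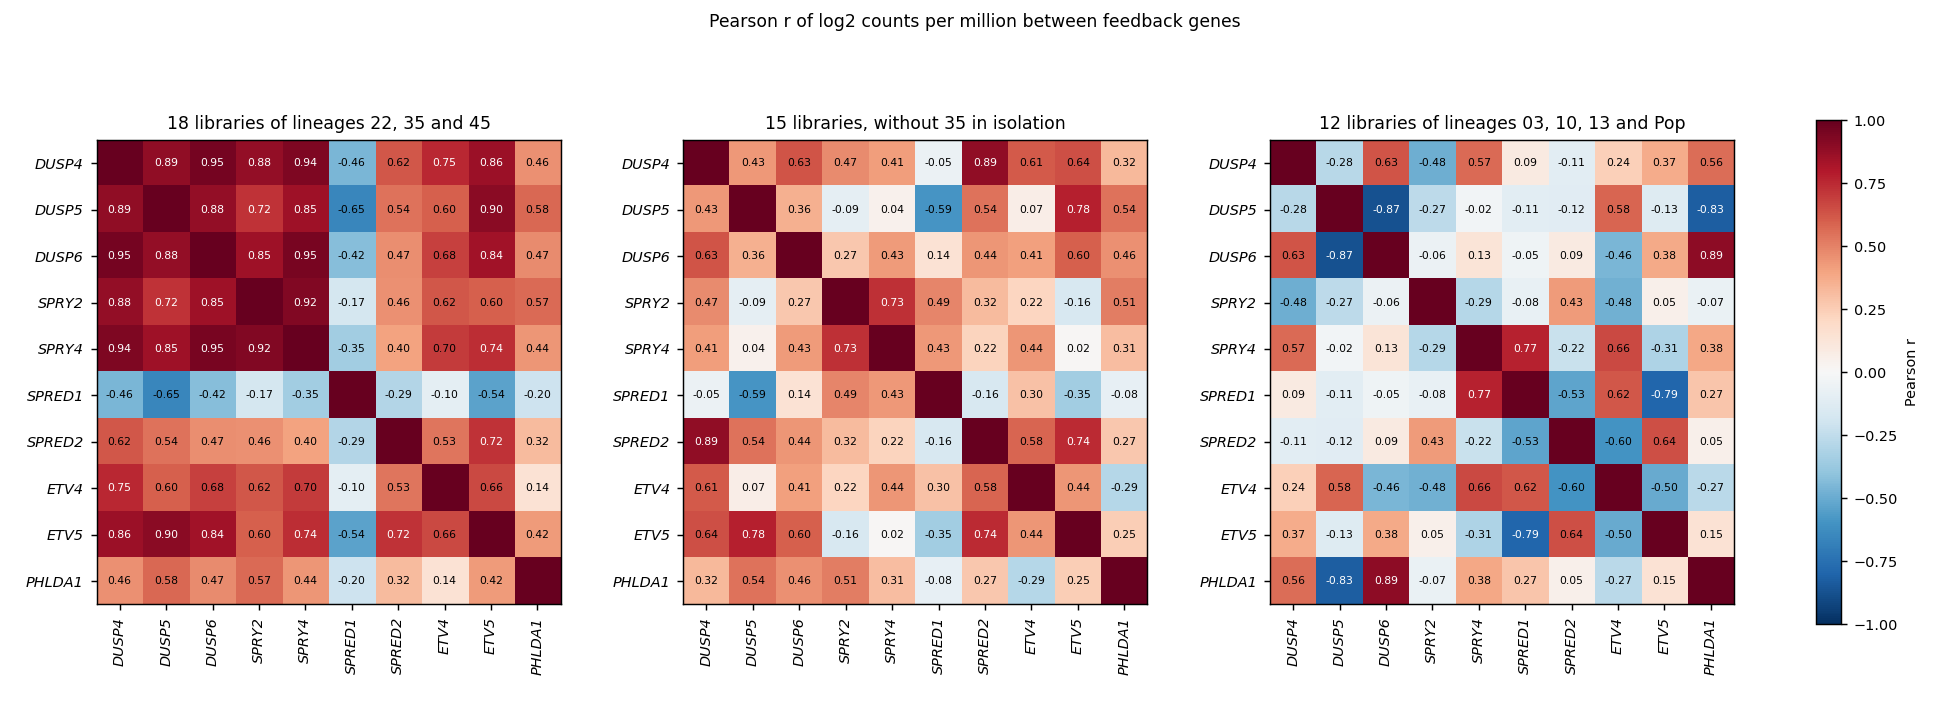
Pearson r of log2 CPM between the 10 genes, over the 18 libraries of the first table, over its 15 libraries without lineage 35 in isolation, and over the 12 libraries of the second table. Red is positive and blue negative; of 45 pairs, 27, 12 and 9 had r above 0.5.

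How the genes varied together depended on which libraries were taken. Over the 18 libraries of the first table, r was 0.95 between DUSP4 and DUSP6, 0.95 between DUSP6 and SPRY4 and 0.92 between SPRY2 and SPRY4, and SPRED1 had a negative r with each of the other 9 genes. The median over the 45 pairs was 0.60. Without the 3 libraries of lineage 35 in isolation the median was 0.41, and the same values were 0.63, 0.43 and 0.73. The highest r was then 0.89, between DUSP4 and SPRED2. Over the 12 libraries of the second table the median was -0.05, r between DUSP6 and SPRY4 was 0.13, and DUSP6 ran with PHLDA1 (0.89) and against DUSP5 (-0.87). These are descriptions over libraries that fall into groups of 3, and the points of a group share their lineage and condition.

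The genes most like DUSP6, by the smaller of its r in the 2 tables among 10470 genes with at least 5 CPM, were MITF (0.95 over 18 libraries and 0.96 over 12), ESAM (0.94 and 0.97), EPB41L4B (0.96 and 0.94), SLAMF7 (0.96 and 0.92) and KRT81 (0.92 and 0.95). Among the other 9 feedback genes, DUSP4 had the best place in that order, at 355. The genes most like SPRY4 were TSPAN31 (0.95 and 0.87), PPFIBP1 (0.91 and 0.87), DCBLD2 (0.87 and 0.85), PLD3 (0.85 and 0.86) and SHANK2 (0.84 and 0.85), and ETV4 was at place 173.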

How the data were processed

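RNA libraries were made from 500 ng with a stranded mRNA kit and sequenced as 75 nt read pairs, per the labels' protocols. STAR 2.6.1d, Salmon 1.4.0 and GRCh38 are named in the submitters' processing notes. The authors deposited 2 separate tables of estimated counts per gene, scaled by transcript length and not normalized for depth. The scaling tool, the annotation and any filter are not given in the sources used here. Every column was mapped to a sample by its labels. Rounded estimated counts went into edgeR 4.0.16 (with limma 3.58.1 in R 4.3.3): filterByExpr kept 14570 and 14638 genes, TMM set the library scale, and 1 robust quasi-likelihood model per table held a term for each group. Benjamini-Hochberg adjustment ran over all genes tested, with a threshold of 0.05. CPM use the TMM scale, and each SE was obtained by dividing the fitted log2 value by the square root of its F. Common biological variation came to 10.4% in both tables. Chi-square per gene between replicates ran from 5.20 to 74.7, and none were identical. Comparisons were made within a table. The text may name all 10 members and, from each list and contrast, up to 4 genes of smallest p. For likeness, the 5 nearest genes are named, and marker genes are named for their levels. FOS was named for its levels after the data were seen. The members and lists were chosen with earlier results of these data known. Positions and transcript lengths are GENCODE v29 (GRCh38), and promoters RefSeq GRCh38.p14. Neighbors are the 50 tested protein-coding genes nearest to a member in order of start position, taken equally from both sides. They are not ranked by distance in bases.

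On counts simulated for 22 co-culture over isolation (14303 genes), 75% of 1.5-fold and 99% of 2-fold changes were recovered and 4.40% of calls were false. For 03 over Pop (14412 genes) the values were 77%, 97% and 2.79%. The changes were put into 100 genes per fold size, all of high mean count and as many up as down. Far more genes were called in the data, so these rates may not hold there or for genes of low counts. Pairing was checked by correlating deviations of same-numbered libraries: all 3 exceeded 0.1 between co-cultures of 22 and 45 alone (0.36, 0.25 and 0.17), and the labels state no pairing. Alternatives were RLE normalization, no filter, a filter of 5 CPM in 3 libraries, the replicate number as a block, models holding just the groups being compared, DESeq2 1.42.0, leaving out each library and, added after the data were seen, leaving out lineage 35. Values of some single genes of the lists are not reported here, and the list counts include them.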

Additional observations from a re-analysis of the deposited data

Results flagged for a closer look

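The difference between co-culture and isolation differed among the libraries labelled 22, 35 and 45 by the interaction F test (edgeR) for 6 of the 10 genes. The adjusted p was 7.46e-10 for DUSP4, 2.55e-09 for SPRY4, 1.01e-07 for DUSP5, 1.4e-06 for DUSP6, 2.24e-05 for SPRY2 and 0.00931 for PHLDA1. The DUSP4 change of lineage 22 also exceeded that of lineage 45, by 0.49 ± 0.13 on the log2 scale. Over all genes tested, 55.2% were called by the same F test, so 6 of 10 is near the share of any genes. With the lineage 35 libraries left out, an alternative chosen after seeing the data, 1 of the 10 genes was called, DUSP4. Of the 9 genes that marked isolated lineage 35, 0 reached 0.5 of their isolated level in the libraries labelled 35 from co-culture.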

How the results depend on the processing

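Most gene values kept their direction and side of the threshold under the alternatives. No called value changed sign. Of 2390 values under alternatives, 53 that were not called changed sign, the largest of these being 0.09 in size on the log2 scale. With lineage 35 left out, chosen after seeing the data, the interaction test called 1 gene in place of 6; by construction it then compares lineages 22 and 45. The single gene lower in 45 co-culture was not called (0 genes) under RLE normalization, no filter, the replicate block, the 2 groups alone or DESeq2. Under the stricter filter 2 genes were lower in 22 co-culture in place of 1. Fits of the compared groups alone gave 4 in place of 2 higher for isolated 22 over 45, 1 in place of 3 for co-culture 22 over 45, 1 in place of 2 for co-culture 35 over 45, 1 in place of 2 for 13 over Pop and 2 in place of 1 for 10 over 13. DESeq2 gave 1 in place of 0 higher for co-culture 22 over 35 and 2 in place of 1 for 10 over 13. The groups alone ended the calls of SPRED2 (0.0742) and ETV4 (0.113) for co-culture 22 over 45, SPRY2 (0.105) for co-culture 35 over 45, ETV4 (0.0808) for 13 over Pop and DUSP5 (0.0784) for 03 over 13. ETV4 also lost its call for co-culture 22 over 45 with no filter (0.0512), and DUSP5 for 03 over 13 under RLE normalization (0.0555). The cause of these moves was not tested. Leaving out 1 library gave 0 to 1 lower for 45 co-culture, 0 to 1 higher and 1 to 2 lower for co-culture 22 over 35, 1 to 3 higher for isolated 22 over 45 and for co-culture 35 over 45, 1 to 3 higher for 03 over 13, 3 to 5 lower for 03 over Pop, 1 to 2 higher for 10 over 13 and for 13 over Pop. The replicate block changed no other call of a gene than SPRED1 in lineage 45 (log2 -0.30). SPRED1's adjusted p there reached 0.0518 under the block. On simulated counts, with few genes changed and all of them of high mean count, 75% of 1.5-fold changes were recovered for 22 co-culture over isolation. The part of depth was not tested.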
